A study of Mus musculus with 24 samples.

Results

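The cyclins, kinases and inhibitors of the G1 phase, 10 genes in all, were followed across mature B cells from mice with deletions of PU.1, SpiB or both. They are the D-type cyclins Ccnd1, Ccnd2 and Ccnd3, the E-type cyclins Ccne1 and Ccne2, the kinases Cdk4 and Cdk6, and the CDK inhibitors Cdkn1a, Cdkn1b and Cdkn2c. Each was taken by its symbol from the gene-level count tables, which list 27179 genes, and all 10 were found in both tables. Every one of the 10 also passed the filter on low counts in each stage, although Ccne2 in naive cells did so through libraries with under 1 CPM (a counts-per-million value on library sizes scaled by the TMM method).

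Resting lymphocytes sit outside the cell cycle and re-enter it after a mitogenic signal. D-type cyclins bind CDK4 and CDK6 and start the phosphorylation of the retinoblastoma protein, E-type cyclins with CDK2 complete it, and E2F factors then switch on the genes for DNA replication. p21 (Cdkn1a) and p27 (Cdkn1b) bind and restrain cyclin-CDK complexes, whereas p18 (Cdkn2c), an INK4 family inhibitor, binds CDK4 and CDK6 themselves. In B cells cyclin D2 and cyclin D3 are the usual D-type cyclins, p27 is a known brake of resting cells, and p18 is known for its role in the cell cycle exit that goes with plasma cell formation.

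RNA-seq libraries were made from lymph node B cells of C57BL/6 mice, either naive or after 48 h in CD40L+IL-4 or in LPS+IL-4. Each of the 3 stages held 4 genotypes with 2 libraries each, 24 libraries in all. Controls were Cd23T/+ and thus carried the Cre transgene with intact target genes. PU.1 cKO was Spi1fl/fl Cd23T/+, SpiB KO was Spi1fl/fl Cd23+/+ Spib-/-, while the double mutant, named PU.1 SpiB DKO in the labels and DKO from here on, was Spi1fl/fl Cd23T/+ Spib-/-. In the study's methods Cre was driven by Cd23 regulatory sequences, which act from the transitional B cell stage, while the Spib allele was null in every cell of the animal. SpiB KO cells carried floxed Spi1 and no Cre, so that loss of SpiB and the absence of Cre cannot be told apart in their comparison with control. For the same reason, loss of PU.1 and the presence of Cre cannot be told apart in DKO against SpiB KO. The interaction of the 4 genotypes also holds this difference in Cre. The study's methods call the replicates biological, and say that mice were matched for age and sex within an experiment, at ages from young to adult, but which animals gave each library was not given in the sources used here. With 2 libraries a group, an exact permutation test cannot go below p = 0.333, so that tests were taken from fits across all genes. Cells were sorted as CD3- B220+ CD138- by the study's gating, a gate that plasmacytoid dendritic cells (pDC), which carry B220, would also pass.

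Libraries held about 14231200 to 18194600 counts in naive cells, 9598670 to 11434200 in CD40L+IL-4 apart from PU.1 cKO replicate 2 with 61640700, and 22757600 to 73658800 in LPS+IL-4. The 5 B cell markers reported here (Cd79a, Cd79b, Ms4a1, Pax5 and Cd22) were detected in every library, at levels that moved with genotype and are given beside the results. Spib counts fell in every SpiB KO and DKO group, for example in naive cells from 1472 and 1354 CPM in control to 85.6 and 80.2 CPM in SpiB KO and 98.8 and 100.3 CPM in DKO. Spi1 fell in naive PU.1 cKO (155 and 174 CPM in control, 59.5 and 53.2 CPM in PU.1 cKO) and less in naive DKO (103 and 110.1 CPM). In LPS+IL-4 the libraries labelled DKO held 63.9 and 58.8 CPM of Spi1 against 71.998 and 60.7 CPM in control, a log2 fold change of -0.11 (edgeR adjusted p = 0.448). The Spi1 count sums all exons, also those outside the floxed part, and so does not measure the deletion there. By the study's own account the floxed exon stayed in part in naive DKO cells, although not in naive PU.1 cKO cells, and was lost from cultured cells of both genotypes. Spi1 counts in naive DKO lay 0.92 ± 0.11 above those in naive PU.1 cKO on the log2 scale (adjusted p = 0.000571, edgeR). By that account naive DKO cells are not a full loss of PU.1, and the extent of deletion and the stage cannot be told apart where DKO effects are compared between naive and cultured cells. A gene was called changed at a Benjamini-Hochberg adjusted p under 0.15 and a fold over 1.5 in edgeR's quasi-likelihood test across all genes, the thresholds that the study's methods set.

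PU.1 and SpiB are ETS factors that bind DNA at a GGAA core. The promoters of Cdkn1a and Cdkn2c are shown because these inhibitors rose in DKO cells of more than 1 stage. The sequences are RefSeq's on GRCm38.p6, the 250 bases before each of the start sites listed for either gene, written 5′ to 3′ along the gene, with GGAA on either strand (GGAA or TTCC) in capitals.
Cdkn1a start 1, chr17:29090729-29090978, plus strand: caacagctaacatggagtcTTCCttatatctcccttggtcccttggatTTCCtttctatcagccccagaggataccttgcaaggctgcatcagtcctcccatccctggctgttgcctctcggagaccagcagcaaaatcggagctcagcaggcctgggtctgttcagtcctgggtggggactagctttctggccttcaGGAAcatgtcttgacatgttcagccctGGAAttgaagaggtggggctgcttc
Cdkn1a start 2, chr17:29093519-29093768, plus strand: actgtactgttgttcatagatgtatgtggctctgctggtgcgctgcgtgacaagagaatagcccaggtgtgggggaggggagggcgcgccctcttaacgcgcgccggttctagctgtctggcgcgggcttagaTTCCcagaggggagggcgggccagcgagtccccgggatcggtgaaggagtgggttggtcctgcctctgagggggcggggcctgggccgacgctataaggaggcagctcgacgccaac
Cdkn2c start 1, chr4:109666757-109667006, minus strand: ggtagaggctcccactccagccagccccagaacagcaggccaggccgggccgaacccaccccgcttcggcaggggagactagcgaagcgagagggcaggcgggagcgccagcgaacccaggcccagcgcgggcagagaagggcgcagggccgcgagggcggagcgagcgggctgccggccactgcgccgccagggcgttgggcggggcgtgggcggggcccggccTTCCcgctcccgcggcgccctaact
Cdkn2c start 2, chr4:109665373-109665622, minus strand: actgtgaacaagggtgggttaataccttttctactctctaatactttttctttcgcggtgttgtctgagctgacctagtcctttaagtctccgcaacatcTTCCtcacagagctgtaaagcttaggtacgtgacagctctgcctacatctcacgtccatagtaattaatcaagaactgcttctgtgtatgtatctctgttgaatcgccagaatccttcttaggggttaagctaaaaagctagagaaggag
The upstream Cdkn1a window held 4 matches, and the other 3 windows held 1 match each. Windows were found for 7 of the 10 genes, 10 windows in all. GGAA stood in 8 of these 10 windows, against 93.4% of all 32851 promoter windows of this length, and the longer GAGGAA (or TTCCTC), which contains GGAA, stood in 1 of 10, the second Cdkn2c window, against 23.3% of all windows. The windows of Ccne1 and Cdkn1b held neither motif. A match is a run of letters and was not tested as a binding site. Within the same annotation Cdkn1a spans chr17:29090979-29100722, Cdkn2c chr4:109660876-109666756 and Ccnd2 chr6:127125162-127152188. Ccnd1 (chr7:144929931-144939831) and Ccne1 (chr7:38097984-38107490) lie on the chromosome of Spib, 100.4 Mb and 6.42 Mb away. The other members are Ccnd3 (chr17:47505051-47599689), Ccne2 (chr4:11190433-11204779), Cdk4 (chr10:127063535-127067288), Cdk6 (chr5:3341004-3531008) and Cdkn1b (chr6:134920401-134925525).

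In control cells the order of levels per transcript length was read from the deposited log2 RPKM values (reads scaled by transcript length and library size). Naive control B cells held most Cdk4, at 6.86 and 6.67 log2 RPKM in the 2 libraries, followed by Cdkn1b at 6.14 and 6.06 and Ccnd3 at 5.39 and 5.40. Resting cells therefore held a kinase, a D-type cyclin and the p27 brake at the top of the list. Ccnd2 (3.80 and 3.68 log2 RPKM) and Cdkn2c (3.42 and 3.26 log2 RPKM) came next, and Ccnd1, Ccne1 and Cdk6 followed with ranges that overlapped one another. Cdkn1a (0.45 and -0.17 log2 RPKM) and Ccne2 (-2.81 and -2.54 log2 RPKM) were lowest. In CD40L+IL-4 the order ran Cdk4, Ccnd3, Ccnd2, Ccne1, Cdkn2c, Cdkn1b, Cdkn1a, Ccne2, Cdk6 and Ccnd1, and no neighbours overlapped. In LPS+IL-4 Cdk4 (8.53 and 8.69 log2 RPKM) was followed by Ccnd2 (7.94 and 8.12 log2 RPKM) and Ccnd3 (6.29 and 6.47 log2 RPKM). Cdkn2c overlapped both Cdkn1b and Ccne2 there, and Ccnd1 was again lowest. The LPS+IL-4 values were normalised apart from those of the other stages by the authors, so that orders were compared only within a stage.

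**Figure D1:**
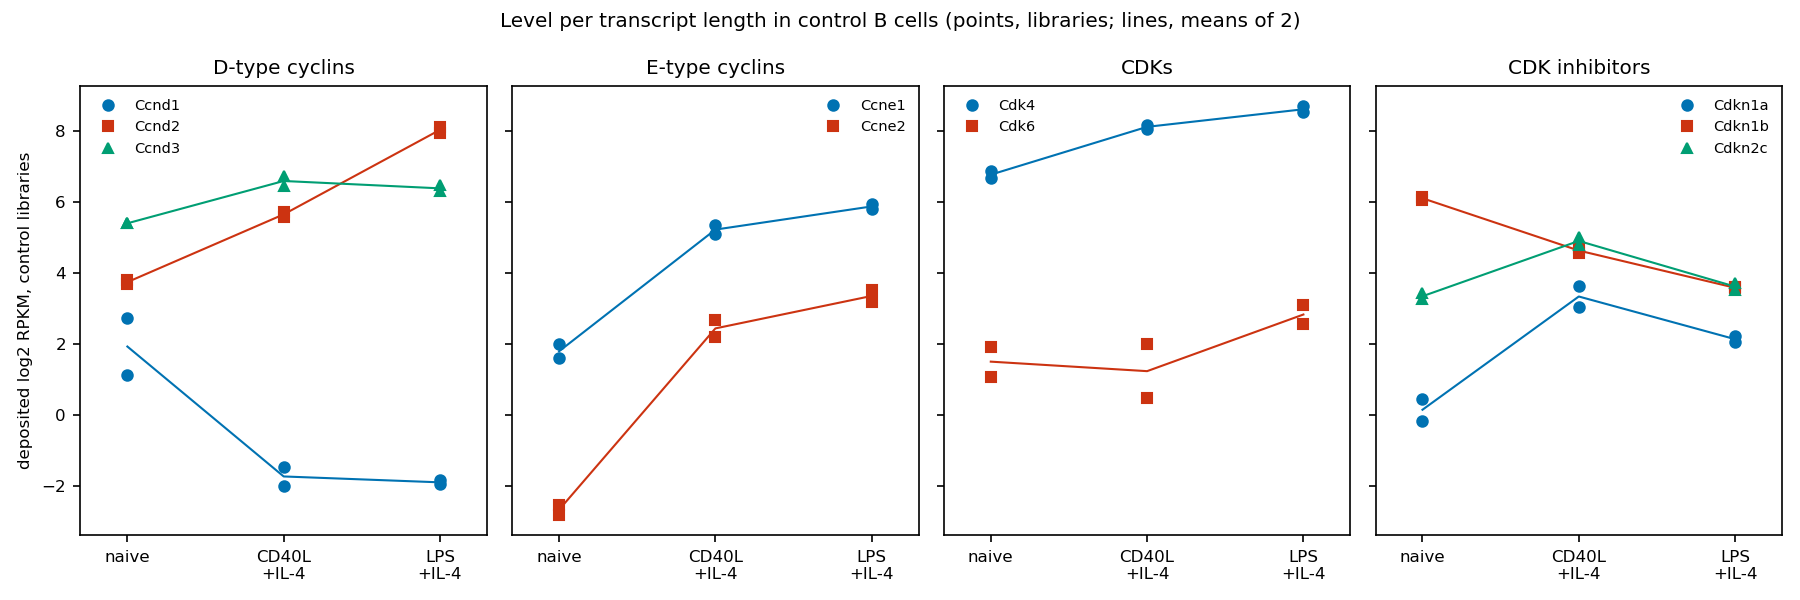
Deposited log2 RPKM (vertical axis) of the 10 genes in control B cells of the 3 stages (horizontal axis), with 1 point per library and lines through the means of 2, and LPS+IL-4 normalised apart from the other stages. Ccne1 and Ccne2 had their lowest values in naive cells, Cdkn1b had its highest there, and Ccnd1 was below 0 in both cultures.

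Activation of control B cells changed nearly all of the list. From naive to CD40L+IL-4, 7 of 10 genes rose and 2 fell in a fit of all 24 libraries, against 48.8% of 13684 genes called in either direction (25.4% higher and 23.4% lower). From naive to LPS+IL-4 again 7 rose and 2 fell, against 63.9% called (32.6% higher and 31.3% lower). The CD40L+IL-4 counts came in a table of their own, while naive and LPS+IL-4 counts shared one, so that table and stage cannot be told apart in any comparison of CD40L+IL-4 with another stage. Each stage also had libraries of its own. Stage and any difference in library making or sequencing therefore cannot be told apart in any comparison between stages, also that of LPS+IL-4 with naive cells. The median log2 fold change of the 10 genes was 1.49 with CD40L+IL-4 and 1.56 with LPS+IL-4, beside medians over all genes tested of 0 and 0.0064.

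Ccne2 rose most of the 10 in both cultures. Ccne1 came next in CD40L+IL-4, while in LPS+IL-4 it lay beside Ccnd2, at 4.18 ± 0.16 against 4.27 ± 0.20 on the log2 scale. On the scale of all 24 libraries Ccne2 went from 0.381 and 0.446 CPM in naive control cells to 20.9 and 15.7 CPM in CD40L+IL-4 and 27.5 and 35.4 CPM in LPS+IL-4. These are log2 fold changes of 5.45 ± 0.39 (SE) and 6.23 ± 0.38, with edgeR adjusted p of 7.82e-10 and 3.54e-11, and the naive values rest on 5 and 6 counts. Ccne1 went from 5.33 and 7.14 CPM to 70.3 and 80.5 CPM and 104 and 123 CPM, which was 3.59 and 4.18 on the log2 scale. No library of either culture overlapped a naive library for these cyclins.

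D-type cyclins went separate ways. Ccnd2 rose from 80.03 and 73.4 CPM to 299 and 268 CPM in CD40L+IL-4 and 1306 and 1658 CPM in LPS+IL-4, a log2 fold change between the cultures of 2.39 ± 0.19, adjusted p = 1.80e-08 (edgeR). Ccnd2 was thus the member that most separated the cultures. Ccnd3 rose by 1.17 with CD40L+IL-4 and 0.97 with LPS+IL-4 on the log2 scale, and its difference between the cultures was -0.20 ± 0.19, adjusted p = 0.386 (edgeR). Ccnd1 went from 24.4 and 7.66 CPM in naive cells to 0.932 and 1.43 CPM and 0.954 and 0.765 CPM, so that little of it was left in either culture.

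Among the kinases, Cdk4 rose by 1.30 and 1.78 on the log2 scale in CD40L+IL-4 and LPS+IL-4. Cdk6, the other partner of D-type cyclins, rose in LPS+IL-4 (1.35 ± 0.35, adjusted p = 0.00201, edgeR). In CD40L+IL-4 its value was 0.08 ± 0.38, from 10.2 and 3.69 CPM against 8.68 and 4.68 CPM in naive cells, and its level in LPS+IL-4 was above that in CD40L+IL-4 (1.26 ± 0.35, adjusted p = 0.00611, edgeR). Without control replicate 1 of CD40L+IL-4, Cdk6 was called lower in that culture than in naive cells (-0.85, adjusted p = 0.116).

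The inhibitors differed from one another. Cdkn1b fell from 177 and 164 CPM to 65.9 and 57.7 CPM in CD40L+IL-4 and 27.3 and 27.2 CPM in LPS+IL-4, log2 fold changes of -1.46 and -2.64. Cdkn1a rose from 2.44 and 1.49 CPM to 16.9 and 26.1 CPM and 7.84 and 8.46 CPM, and was lower in LPS+IL-4 than in CD40L+IL-4 (-1.39 ± 0.22, adjusted p = 3.43e-05, edgeR). Cdkn2c rose in CD40L+IL-4 (1.68) and had a value of 0.26 ± 0.15 in LPS+IL-4 (adjusted p = 0.121, edgeR). In all, 4 genes were higher and 3 lower in LPS+IL-4 than in CD40L+IL-4, against 41.2% of genes called (20.3% higher and 21% lower). The 4 were Ccnd2, Ccne1, Ccne2 and Cdk6, and the 3 were the inhibitors. Ccne1 is the least firm of these, since its log2 value of 0.59 fell under the fold threshold with voom (0.44), with DESeq2 (0.55), with other size factors (0.55), without control replicate 1 of CD40L+IL-4 (0.49) and without control replicate 2 of LPS+IL-4 (0.46). Ccne2 at 0.78 also fell under it without that last library (0.57), and Cdk4 passed it without control replicate 1 of LPS+IL-4 (0.59).

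**Figure D2:**
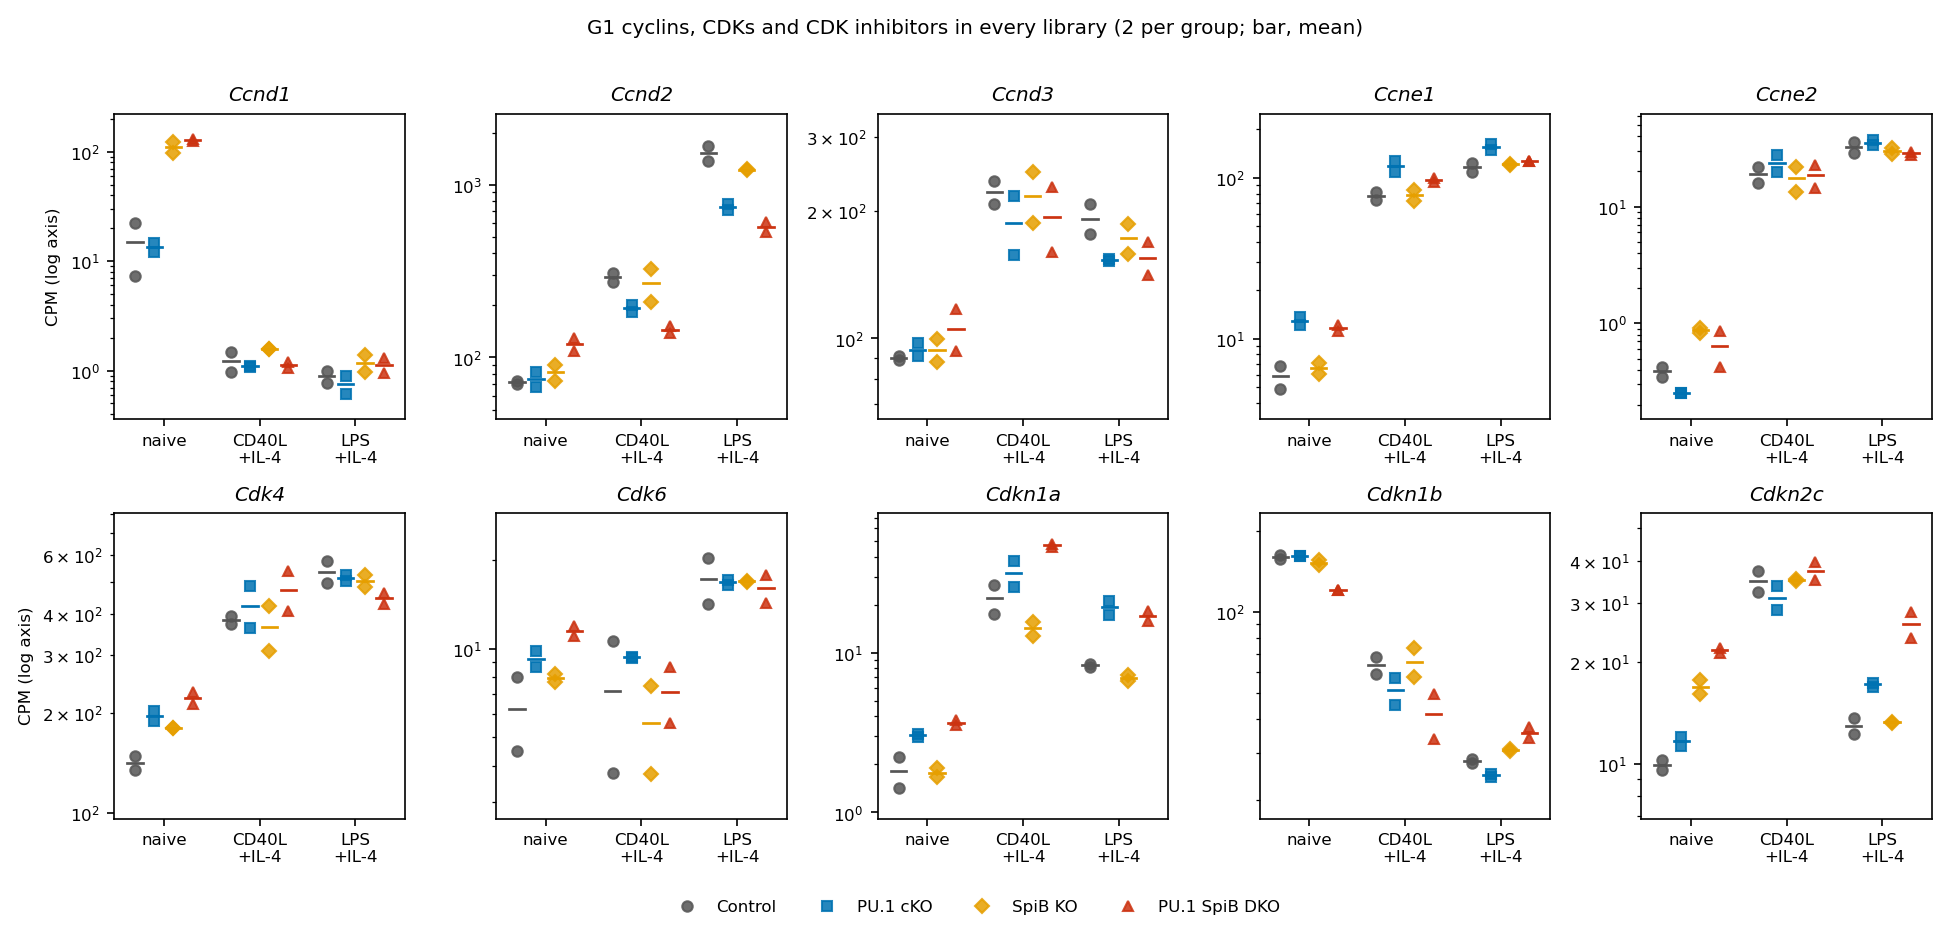
CPM on a log axis of the 10 genes in all 24 libraries, grouped by stage along the horizontal axis and coloured by genotype, with each bar the mean of 2 libraries. Ccnd2 sits below control in both cultures of PU.1 cKO and of PU.1 SpiB DKO, Cdkn1a in PU.1 SpiB DKO sits above control in all 3 stages, and Ccnd1 in naive SpiB KO and PU.1 SpiB DKO sits at 96.7 CPM or more.

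In naive cells the DKO genotype went with higher levels of most of the list, with the partial retention of the floxed Spi1 exon given above. Of the 10 genes, 7 were higher and 0 lower in DKO than in control, against 21.2% of 12500 genes called in either direction (12.6% higher and 8.64% lower). The median log2 fold change of the 10 was 0.81, beside 0.0022 over all genes. The fits of this stage share their 8 libraries, so that the comparisons are not independent of one another. PU.1 cKO had 1 gene higher (Ccne1) and 0 lower, against 10.7% of genes called (4.18% higher). SpiB KO had 2 higher (Ccnd1 and Cdkn2c) and 0 lower, against 9.62% called (6.01% higher). DKO differed from PU.1 cKO in 3 genes, all higher (Ccnd1, Ccnd2 and Cdkn2c), with 12.9% of genes called (9.91% higher), and from SpiB KO in 1, Ccne1, with 3.05% called (1.7% higher). The interaction asks whether the effect of losing both differs from the sum of the single losses, with the difference in Cre given above. It was called for 0 of 10 genes by edgeR, by DESeq2 and by voom. In edgeR 2 of 10 had an unadjusted p under 0.05, and 0.936% of all genes were called.

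DKO against control gave fewer calls over the list in either culture than in naive cells, 3 in each against 7. In CD40L+IL-4, DKO had 1 gene higher and 2 lower than control, against 18.3% of 12721 genes called (9.13% higher and 9.2% lower). PU.1 cKO had 1 higher and 1 lower, with 13.5% called. SpiB KO had 0 of 10 called by edgeR, DESeq2 and voom, with 1 of 10 at an unadjusted p under 0.05 and 0.134% of genes called. DKO differed from SpiB KO in 1 gene higher and 2 lower (15.3% called). It differed from PU.1 cKO in 0 of 10 by the same 3 tools, with 1 of 10 at an unadjusted p under 0.05 and 4.06% of genes called. The interaction was called for 0 of 10 genes by edgeR and voom and for 1 by DESeq2, with 1 of 10 at an unadjusted p under 0.05 and 1.17% of genes called.

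In LPS+IL-4, DKO had 2 genes higher and 1 lower than control, against 20.2% of 12445 genes called (13.7% higher and 6.52% lower), and 6 of 10 passed the p threshold alone. PU.1 cKO had 1 higher and 1 lower, with 10.5% called. SpiB KO had 0 of 10 called by edgeR, DESeq2 and voom, with 1 of 10 at an unadjusted p under 0.05 and 3.19% of genes called. DKO differed from PU.1 cKO in 1 gene, Cdkn2c, which was higher (12.6% called, 9.12% higher) and from SpiB KO in 3, Cdkn1a and Cdkn2c higher and Ccnd2 lower (12.8% called). The interaction was called for 0 of 10 genes by the 3 tools, with 3 of 10 at an unadjusted p under 0.05 (Ccne1, Cdkn1b and Cdkn2c) and 1.38% of genes called. With replicate numbers as a block, which pair the samples in this stage, the interaction was called for 540 genes in place of 172 and again for 0 of the 10.

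**Figure D3:**
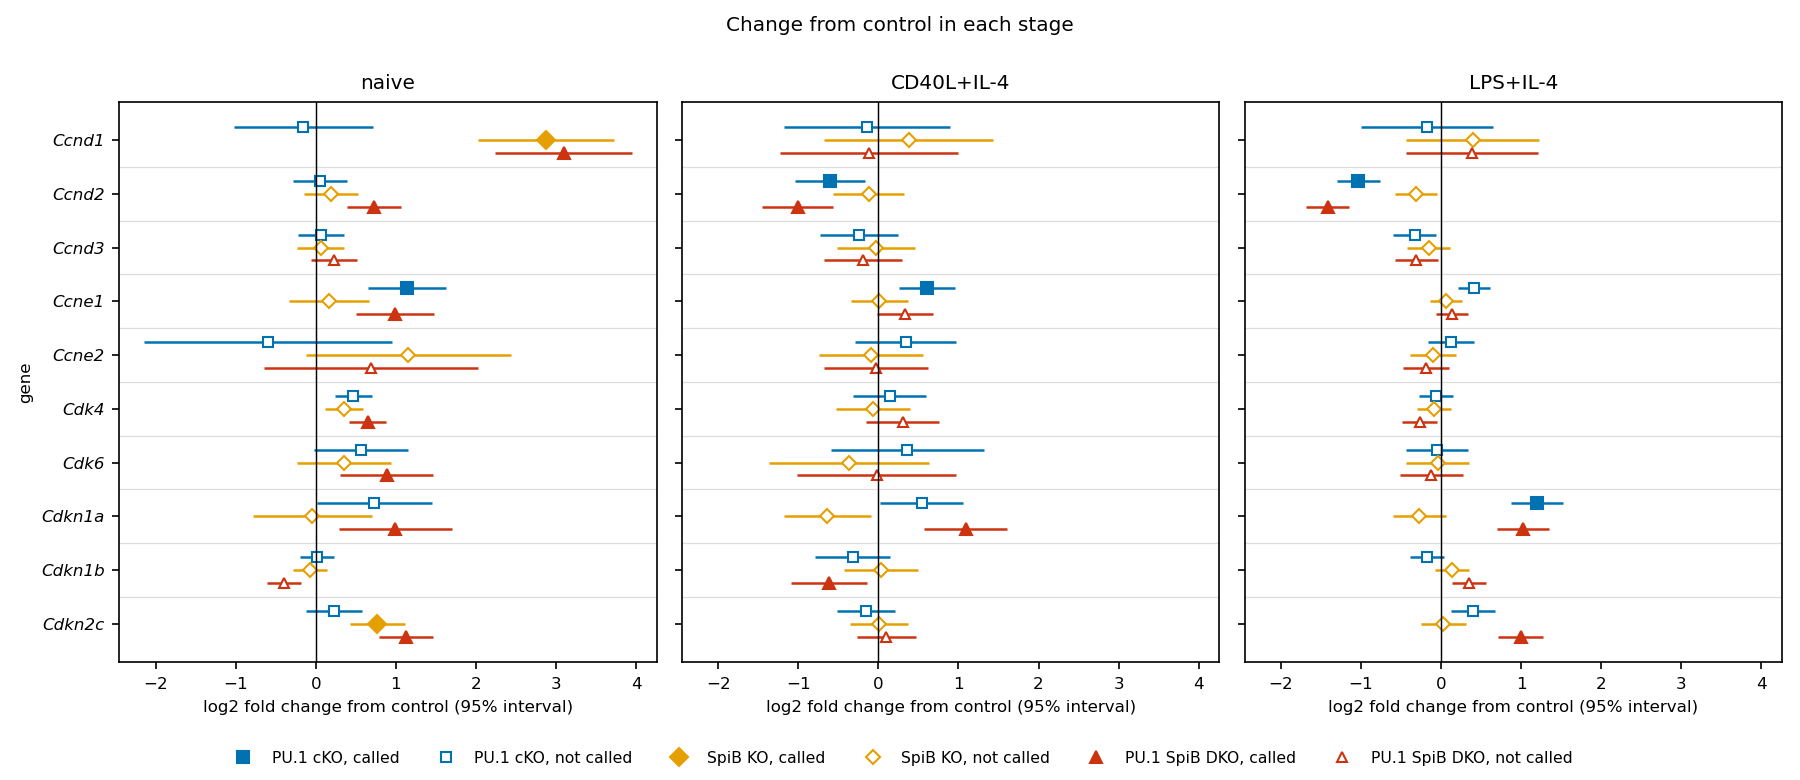
Log2 fold change from control (horizontal axis, with 95% interval) of each gene in naive cells, CD40L+IL-4 and LPS+IL-4, for PU.1 cKO, SpiB KO and PU.1 SpiB DKO, where filled symbols were called. Filled symbols of PU.1 SpiB DKO lie to the right for 7 genes in naive cells, and for Ccnd2 they lie to the right in naive cells and to the left in both cultures.

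Cyclin D1 (Ccnd1) had the widest change of the 10 in naive cells. Its levels were 22.5 and 7.32 CPM in control, 12.2 and 14.6 in the PU.1 cKO, 123 and 96.7 in the SpiB KO and 124 and 131 in the DKO. SpiB KO and DKO libraries all lay above every control and PU.1 cKO library. The log2 fold changes were 2.88 ± 0.38 (SE) in SpiB KO and 3.10 ± 0.38 in DKO, with edgeR adjusted p of 0.00199 and 0.000579. In PU.1 cKO the value was -0.15 ± 0.39 (adjusted p = 0.844, edgeR). DKO lay 3.25 ± 0.38 above PU.1 cKO (adjusted p = 0.000487, edgeR) and 0.22 ± 0.34 above SpiB KO, with a 95% interval of -0.55 to 0.98 for the latter. Without control replicate 1 the log2 fold changes were 3.90 in SpiB KO and 4.11 in DKO, and without control replicate 2 they were 2.29 and 2.50. The same removals gave called changes of opposite sign in PU.1 cKO, 0.87 and -0.74.

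Markers of other cell types moved with Ccnd1 in the naive libraries. The summed level of 5 pDC markers (Siglech, Ccr9, Klk1, Cox6a2 and Pacsin1) was 150.2 and 77.7 CPM in control, 96.8 and 96.6 in the PU.1 cKO, 668 and 559.7 in the SpiB KO and 827 and 767 in the DKO. All 5 pDC markers were called higher than in control in both SpiB KO and DKO, and control replicate 1 lay above control replicate 2 for the sum as it did for Ccnd1. The sum of 6 T cell markers was 34.1 and 11.1 CPM in control, 19.9 and 21.3 in the PU.1 cKO, 295 and 239 in the SpiB KO and 351 and 334 in the DKO. In the latter 3 of the 5 that could be tested were called higher, and the sum came mostly from Cd8a and Cd4, while each CD3 chain (Cd3d, Cd3e and Cd3g) stayed at or under 1.23 CPM in every naive library and Cd3e was at 0 in PU.1 cKO replicate 1. The sum of 5 macrophage markers was 24.995 and 13.2 CPM in control, 13.2 and 14.02 in the PU.1 cKO, 63.5 and 51.2 in the SpiB KO and 72.6 and 71.9 in the DKO, where 3 of 5 were called higher. The sum of the 5 B cell markers was lower in SpiB KO and DKO libraries than in the others, with 9100.5 and 9299.7 CPM in control, 9215 and 9293 in the PU.1 cKO, 8148 and 7989 in the SpiB KO and 7339.8 and 6707 in the DKO. Of these 5, Ms4a1 was called lower in DKO (-0.67 ± 0.12, adjusted p = 0.00437, edgeR) and Cd22 in each single mutant. In bulk RNA, fewer or more cells of a type and less or more RNA per cell cannot be told apart, and the part of such cells in the Ccnd1 difference was not tested. Over the 24 libraries the genes most like Ccnd1 were Ctsl (Pearson r = 0.991 of log2 CPM) and Cdip1 (r = 0.979), where the points share the 12 groups and the depth of their libraries.

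**Figure D4:**
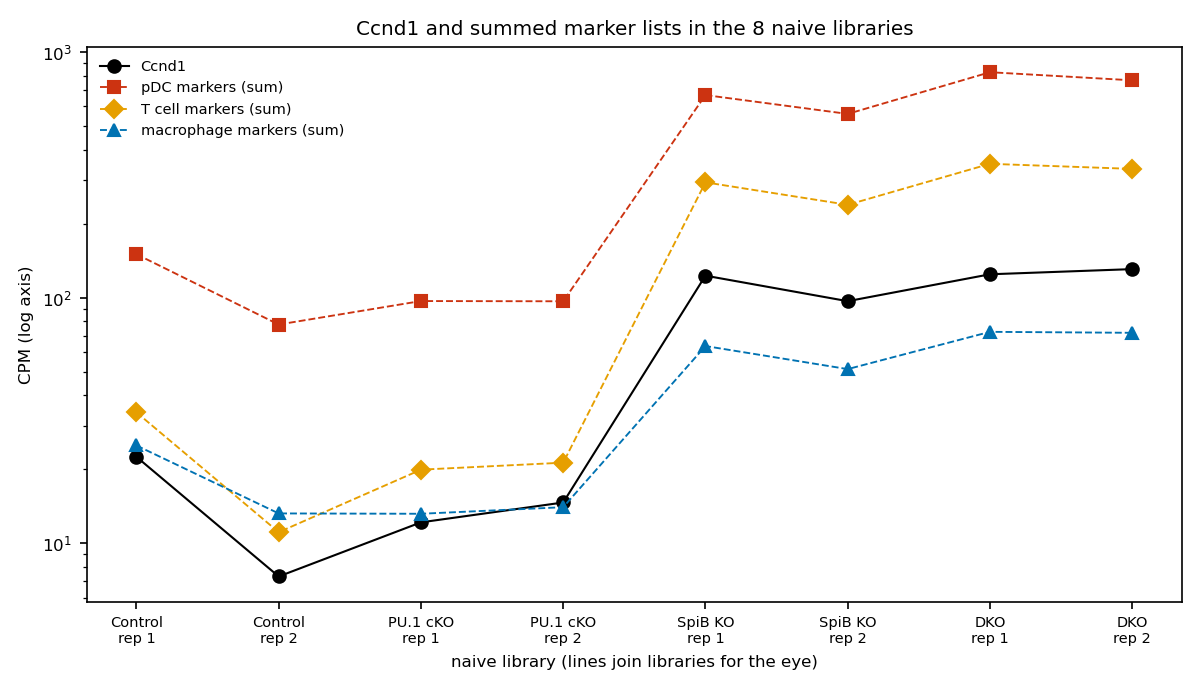
CPM on a log axis of Ccnd1 and of the summed pDC, T cell and macrophage markers in each of the 8 naive libraries along the horizontal axis. All 4 quantities are higher in the SpiB KO and PU.1 SpiB DKO libraries than in the control and PU.1 cKO libraries.

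In the cultures Ccnd1 was close to the filter on low counts. In CD40L+IL-4 its levels were 0.965 and 1.47 CPM in control, 1.10 and 1.09 in the PU.1 cKO, 1.58 and 1.56 in the SpiB KO and 1.19 and 1.05 in the DKO. In LPS+IL-4 they were 0.994 and 0.774 CPM in control, 0.890 and 0.610 in the PU.1 cKO, 0.967 and 1.38 in the SpiB KO and 1.29 and 0.954 in the DKO. DKO overlapped control in both, and edgeR, DESeq2 and voom called 0 of the 12 comparisons of Ccnd1 in the cultures, with 0 at an unadjusted p under 0.05. The 95% interval for DKO against control ran from -1.22 to 0.999 in CD40L+IL-4 and from -0.44 to 1.21 in LPS+IL-4 on the log2 scale. The data were thus compatible with changes of either sign within these bounds.

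Cyclin D2 (Ccnd2), a D-type cyclin that B cells induce on activation, moved in opposite directions by stage. In naive cells its levels were 73.6 and 70.2 CPM in control, 82.4 and 67.1 in the PU.1 cKO, 73.3 and 90.9 in the SpiB KO and 109.5 and 129 in the DKO. Both DKO libraries lay above all others, with a log2 fold change over control of 0.73 ± 0.15, adjusted p = 0.0085 (edgeR), while PU.1 cKO (0.06) and SpiB KO (0.19) overlapped control. Its excess over PU.1 cKO (0.68 ± 0.15, adjusted p = 0.0175, edgeR) fell under the threshold without PU.1 cKO replicate 2 (0.54) or DKO replicate 2 (0.55). In LPS+IL-4 the levels were 1361 and 1678 CPM in control, 769 and 716 in the PU.1 cKO, 1211 and 1232 in the SpiB KO and 530.3 and 609 in the DKO. There the 4 groups did not overlap, and the order ran control, SpiB KO, PU.1 cKO and DKO. Ccnd2 fell by 2.05-fold in PU.1 cKO (log2 -1.03 ± 0.12, adjusted p = 0.000532, edgeR) and by 2.67-fold in DKO (log2 -1.42 ± 0.12, adjusted p = 3.86e-05, edgeR). SpiB KO alone gave -0.31 ± 0.12 (adjusted p = 0.265, edgeR), which missed the call, and the interaction was -0.07 with a 95% interval of -0.44 to 0.31.

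In CD40L+IL-4 Ccnd2 levels were 309.8 and 274 CPM in control, 202 and 183 in the PU.1 cKO, 210.2 and 326 in the SpiB KO and 138 and 153 in the DKO. DKO again lay below every other library, by a log2 fold change from control of -1.01 ± 0.20, adjusted p = 0.00798 (edgeR). The fall in PU.1 cKO (-0.60 ± 0.20, adjusted p = 0.0957, edgeR) sat at the fold threshold, and it was lost in each of the 4 fits that left out 1 library, with adjusted p from 0.163 to 0.445. SpiB KO libraries spanned those of control. Against SpiB KO the DKO value was -0.89 ± 0.20, adjusted p = 0.0184 (edgeR), which without SpiB KO replicate 2 fell under the fold threshold (-0.54). The change of direction was itself tested, and the DKO effect on Ccnd2 differed from that in naive cells by -1.72 ± 0.25, adjusted p = 0.000134 in CD40L+IL-4 and by -2.21 ± 0.25, adjusted p = 1.12e-05 in LPS+IL-4 (log2 differences, edgeR), and both calls held in every alternative tried.

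Cyclin D3 (Ccnd3), the D-type cyclin with the highest level in naive cells, was called in 0 of the 18 genotype comparisons by edgeR, DESeq2 and voom, with 2 at an unadjusted p under 0.05. In naive cells its levels were 88.8 and 91.1 CPM in control, 90.7 and 97.6 in the PU.1 cKO, 99.5 and 88.2 in the SpiB KO and 117 and 93.5 in the DKO. DKO lay above control there by 0.23 ± 0.13 (adjusted p = 0.251, edgeR). In CD40L+IL-4 they were 208 and 236 CPM in control, 158 and 218 in the PU.1 cKO, 187 and 248 in the SpiB KO and 160.4 and 228 in the DKO, with overlap between all groups compared. In LPS+IL-4 the levels were 177 and 208 CPM in control, 152 and 154 in the PU.1 cKO, 159 and 187 in the SpiB KO and 141 and 169 in the DKO. PU.1 cKO (-0.33 ± 0.12, adjusted p = 0.126, edgeR) and DKO (-0.31 ± 0.12, adjusted p = 0.0746, edgeR) lay below control without overlap and passed the p threshold, but not the fold.

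Cyclin E1 (Ccne1) was higher in PU.1 cKO than in control in naive and CD40L+IL-4 cells, and in DKO in naive cells. Its naive levels were 4.90 and 6.82 CPM in control, 12.2 and 13.7 in the PU.1 cKO, 6.01 and 7.12 in the SpiB KO and 12.1 and 11.2 in the DKO. The libraries fell into 2 sets that did not overlap, control and SpiB KO below, PU.1 cKO and DKO above. The log2 fold changes were 1.14 ± 0.22, adjusted p = 0.0142 for the PU.1 cKO, 0.16 ± 0.22 for the SpiB KO and 0.99 ± 0.22, adjusted p = 0.0119 in DKO (edgeR). DKO was also called above SpiB KO (0.82 ± 0.21, adjusted p = 0.103, edgeR), a call that each of the 4 fits without 1 library lost (adjusted p from 0.282 to 0.523). In CD40L+IL-4 the levels were 72.8 and 82.2 CPM in control, 108 and 128 in the PU.1 cKO, 72.3 and 83.9 in the SpiB KO and 94.6 and 101 in the DKO. PU.1 cKO again lay highest (0.61 ± 0.16, adjusted p = 0.0382, edgeR), and the call was lost without its deeply sequenced replicate 2 (0.50) or without control replicate 1 (0.53). DKO at 0.33 ± 0.16 did not pass (adjusted p = 0.201, edgeR). In LPS+IL-4 the levels were 108 and 124 CPM in control, 148 and 161 in the PU.1 cKO, 122 and 121 in the SpiB KO and 127 and 128 in the DKO. There PU.1 cKO at 0.41 ± 0.09, adjusted p = 0.0153 (edgeR) passed the p threshold but not the fold.

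Cyclin E2 (Ccne2) was called in 0 of the 18 genotype comparisons by edgeR, DESeq2 and voom, with 1 at an unadjusted p under 0.05. Its naive levels were 0.350 and 0.426 CPM in control, 0.255 and 0.253 in the PU.1 cKO, 0.832 and 0.916 in the SpiB KO and 0.861 and 0.421 in the DKO, which are 4 to 17 counts a library, and the 95% interval for DKO ran from -0.64 to 2.03. At such low counts 3 naive comparisons did not overlap, and none was called. SpiB KO lay above control (1.16 ± 0.57, adjusted p = 0.304, edgeR). PU.1 cKO lay below control (-0.60 ± 0.69, adjusted p = 0.65, edgeR), and DKO lay above PU.1 cKO (1.29 ± 0.63, adjusted p = 0.261, edgeR). In CD40L+IL-4 its levels were 21.7 and 16.03 CPM in control, 19.7 and 27.6 in the PU.1 cKO, 13.4 and 21.9 in the SpiB KO and 14.5 and 22.5 in the DKO. In LPS+IL-4 they were 28.7 and 35.8 CPM in control, 33.3 and 37.2 in the PU.1 cKO, 31.9 and 28.2 in the SpiB KO and 29.5 and 27.4 in the DKO, and every other genotype overlapped control there. Its pattern over the 24 libraries was most like those of the mitotic genes Ccnb1 and Cdk1 (r = 0.994 for both), of which naive cells also held little.

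Cdk4 rose in naive DKO cells. Its naive levels were 149 and 135 CPM in control, 203 and 189 in the PU.1 cKO, 181 and 181 in the SpiB KO and 231 and 214 in the DKO. Control was lowest, and each other group lay above it without overlap. DKO passed both thresholds (0.65 ± 0.10, adjusted p = 0.00235, edgeR), whereas PU.1 cKO (0.47 ± 0.10, adjusted p = 0.0282, edgeR) and SpiB KO (0.35 ± 0.10, adjusted p = 0.0861, edgeR) passed the p threshold and not the fold. Without control replicate 2 the DKO value was 0.58, just under the fold threshold. In CD40L+IL-4 its levels were 373 and 393 CPM in control, 362 and 483 in the PU.1 cKO, 308 and 422 in the SpiB KO and 409 and 536 in the DKO. In LPS+IL-4 they were 494 and 575 CPM in control, 501 and 522 in the PU.1 cKO, 482 and 524 in the SpiB KO and 426 and 463 in the DKO. The sign of the difference thus turned in LPS+IL-4 (-0.27 ± 0.10, adjusted p = 0.0609, edgeR, under the fold), and the DKO effect there differed from that in naive cells by -0.98 ± 0.23, adjusted p = 0.00689 (edgeR).

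Cdk6 was a low-count gene with wide spread. Its naive levels were 7.98 and 4.48 CPM in control, 9.80 and 8.65 in the PU.1 cKO, 8.21 and 7.71 in the SpiB KO and 11.1 and 11.96 in the DKO. DKO lay above every other library (0.88 ± 0.26, adjusted p = 0.0401, edgeR), but the call was lost without control replicate 2 (0.53, adjusted p = 0.162). Without control replicate 1, PU.1 cKO was called too (1.04, adjusted p = 0.024). SpiB KO was called as well without that library (0.82, adjusted p = 0.0589). In CD40L+IL-4 its levels were 10.6 and 3.77 CPM in control, 9.32 and 9.36 in the PU.1 cKO, 3.74 and 7.45 in the SpiB KO and 5.61 and 8.67 in the DKO. In LPS+IL-4 they were 14.2 and 20.4 CPM in control, 17.2 and 16.5 in the PU.1 cKO, 16.8 and 17.05 in the SpiB KO and 14.3 and 17.8 in the DKO. The groups overlapped control in both cultures, and edgeR, DESeq2 and voom called 0 of the 12 comparisons there, with 0 at an unadjusted p under 0.05. DKO values were -0.02 ± 0.45 with CD40L+IL-4 and -0.12 ± 0.17 with LPS+IL-4.

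The inhibitor p21 (Cdkn1a) was higher in DKO than in control in all 3 stages. In LPS+IL-4 its levels were 8.17 and 8.56 CPM in control, 17.3 and 21.2 in the PU.1 cKO, 6.67 and 7.28 in the SpiB KO and 18.1 and 15.8 in the DKO. PU.1 cKO and DKO lay above every control and SpiB KO library. The log2 fold changes were 1.20 ± 0.14, adjusted p = 0.000675 in PU.1 cKO and 1.02 ± 0.14, adjusted p = 0.000746 in DKO (edgeR), and the difference between these genotypes was -0.17 ± 0.14 with overlapping libraries. SpiB KO lay under control at -0.27 ± 0.15 (adjusted p = 0.488, edgeR).

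In CD40L+IL-4 Cdkn1a levels were 17.5 and 26.7 CPM in control, 25.95 and 37.6 in the PU.1 cKO, 15.7 and 12.7 in the SpiB KO and 45.7 and 48.2 in the DKO. DKO was highest and SpiB KO lowest, without overlap with control on either side. The DKO value was 1.09 ± 0.24, adjusted p = 0.0122 against control and 1.73 ± 0.24, adjusted p = 0.00153 against SpiB KO (edgeR), while PU.1 cKO at 0.54 ± 0.23 did not pass (adjusted p = 0.2, edgeR). PU.1 cKO was called without its replicate 1 (0.79) or without control replicate 2 (0.87). The interaction of 1.19 ± 0.34 had an unadjusted p of 0.00469 and an adjusted p of 0.239 in edgeR, and DESeq2 called it (1.20, adjusted p = 0.0858). In naive cells Cdkn1a rested on few counts, 20 to 72 a library, at 2.24 and 1.42 CPM in control, 3.12 and 2.97 in the PU.1 cKO, 1.66 and 1.89 in the SpiB KO and 3.50 and 3.79 in the DKO. The DKO value of 0.99 ± 0.32, adjusted p = 0.0543 (edgeR) was called, and the call was lost with voom (0.61), without control replicate 2 (0.70) and without DKO replicate 1 (1.05) or 2 (0.91). PU.1 cKO at 0.73 ± 0.32 was called without control replicate 1 (1.09). The differences of the DKO effect between stages ran from -0.15 to 0.12 for Cdkn1a, and none was called.

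The inhibitor p27 (Cdkn1b) in DKO lay below control in naive and CD40L+IL-4 cells and above it in LPS+IL-4. Its naive levels were 162 and 157 CPM in control, 161 and 161 in the PU.1 cKO, 149 and 155 in the SpiB KO and 121 and 121 in the DKO. DKO lay below the other 6 libraries at -0.40 ± 0.09, adjusted p = 0.0163 (edgeR), under the fold threshold. In CD40L+IL-4 the levels were 68.3 and 58.99 CPM in control, 57.01 and 45.2 in the PU.1 cKO, 73.1 and 57.3 in the SpiB KO and 49.6 and 33.7 in the DKO. The DKO value of -0.61 ± 0.22, adjusted p = 0.0875 (edgeR) was called, and was lost without control replicate 1 (-0.50) or without DKO replicate 2 (-0.35). The value against SpiB KO (-0.65 ± 0.22, adjusted p = 0.0859, edgeR) was lost without SpiB KO replicate 1 (-0.46) or the same DKO library (-0.40). In LPS+IL-4 the levels were 28.5 and 27.5 CPM in control, 24.5 and 25.1 in the PU.1 cKO, 31.02 and 30.6 in the SpiB KO and 37.3 and 34.001 in the DKO. Here DKO lay highest, at 0.35 ± 0.09, adjusted p = 0.0176 (edgeR), again under the fold. The difference of the DKO effect between LPS+IL-4 and CD40L+IL-4 was 0.88 ± 0.21, adjusted p = 0.0104 (edgeR), a call that held in every alternative tried.

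The INK4 inhibitor p18 (Cdkn2c) rose in naive and LPS+IL-4 cells. Its naive levels were 10.2 and 9.60 CPM in control, 11.97 and 11.3 in the PU.1 cKO, 17.7 and 16.1 in the SpiB KO and 21.3 and 21.96 in the DKO. The 4 groups did not overlap and ran upward from control through PU.1 cKO and SpiB KO to DKO. SpiB KO (0.77 ± 0.15, adjusted p = 0.0185, edgeR) and DKO (1.13 ± 0.15, adjusted p = 0.000948, edgeR) were called, and DKO was also called above PU.1 cKO (0.90 ± 0.15, adjusted p = 0.00387, edgeR). The SpiB KO call was lost without SpiB KO replicate 1 (0.70, adjusted p = 0.156). The pDC, T cell and macrophage marker sums given for Ccnd1 were high in these same 4 libraries, and their part in the Cdkn2c difference was not tested. In LPS+IL-4 the levels were 12.2 and 13.7 CPM in control, 16.9 and 17.4 in the PU.1 cKO, 13.2 and 13.3 in the SpiB KO and 23.6 and 28.2 in the DKO. DKO lay highest (0.99 ± 0.12, adjusted p = 0.000353, edgeR), and PU.1 cKO at 0.40 ± 0.12, adjusted p = 0.0702 (edgeR) passed the p threshold but not the fold. SpiB KO lay within the control range at 0.03 ± 0.13. The excess of DKO over PU.1 cKO was 0.59 ± 0.12, adjusted p = 0.0113 (edgeR), just past the fold threshold, and fell under it with voom (0.52), without PU.1 cKO replicate 1 (0.56) and without DKO replicate 2 (0.44). In CD40L+IL-4 the levels were 32.3 and 37.3 CPM in control, 28.5 and 33.6 in the PU.1 cKO, 35.2 and 34.7 in the SpiB KO and 39.6 and 34.96 in the DKO. DKO overlapped control there at 0.10 ± 0.17 (95% interval -0.26 to 0.46), and the DKO effect differed from that in naive cells by -1.01 ± 0.20, adjusted p = 0.00254 (edgeR).

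Plasma cell markers moved with genotype in the cultures, where cells were sorted as CD138-. By the study's account few CD138+ cells had formed at 48 h of CD40L+IL-4. The summed level of Sdc1, Prdm1, Xbp1, Irf4 and Jchain in LPS+IL-4 was 661 and 712 CPM in control, 1189 and 1311 in the PU.1 cKO, 748 and 805 in the SpiB KO and 1634 and 1629 in the DKO, and 4 of 5 were called higher in DKO. In CD40L+IL-4 the sum was 1224 and 1419.7 CPM in control, 1843 and 2060.2 in the PU.1 cKO, 1161 and 1722 in the SpiB KO and 2339 and 2587 in the DKO, with 5 of 5 called higher in DKO. The B cell marker sum in CD40L+IL-4 was 4912 and 6330.1 CPM in control, 4736 and 4355 in the PU.1 cKO, 7126 and 5088 in the SpiB KO and 4057 and 3099.8 in the DKO, where 3 of 5 (Ms4a1, Pax5 and Cd22) were called lower. In LPS+IL-4 it was 3106 and 2633 CPM in control, 2568 and 2435 in the PU.1 cKO, 3241 and 3574 in the SpiB KO and 3325 and 3311 in the DKO, where 2 of 5 (Cd79a and Cd22) were called higher. Group means of Cdkn1a were above control and those of Ccnd2 below it in PU.1 cKO and DKO of both cultures, as Cdkn2c was above it in LPS+IL-4, and the part of the plasma cell and B cell marker shifts in their differences was not tested. The pDC sum, which moved with Ccnd1 in naive cells, was 10.9 and 6.71 CPM in control and 12.5 and 11.7 CPM in DKO in LPS+IL-4, and 59.4 and 46.3 CPM and 14.8 and 11.9 CPM in CD40L+IL-4. The genes most like Cdkn2c over the 24 libraries were Slpi (r = 0.965) and Rab27a (r = 0.947), while those most like Cdkn1a were Uggt1 (r = 0.966) and Pcyox1l (r = 0.962). Those most like Ccnd2 were Pes1 (r = 0.976) and Polr3g (r = 0.973), those most like Cdkn1b 4930523C07Rik (r = 0.994) and Lbh (r = 0.990), and those most like Cdk4 Mrps26 (r = 0.986) and Vdac1 (r = 0.984). Ccne1 was most like Il12rb1 and Bora (r = 0.987 for both), Ccnd3 was most like Srsf9 (r = 0.949) and Sox12 (r = 0.948), and Cdk6 was most like Nupl1 (r = 0.920) and Atp6v1a (r = 0.916).

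The DKO effect differed between stages for several members. Between CD40L+IL-4 and naive cells it differed for 4 of 10 genes, all lower in CD40L+IL-4, against 14.4% of 13684 genes called (8.6% lower). Between LPS+IL-4 and naive cells it differed for 7 genes, 1 higher and 6 lower, against 23.7% called (12.7% lower). Between the cultures it differed for 3 genes, Cdkn1b and Cdkn2c higher and Cdk4 lower in LPS+IL-4, against 22.5% called. The 3 comparisons share their groups and are not independent of one another.

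Other genes of the G1 pathway were taken from a list of 25 that joins CDK2 and its activators, further CDK inhibitors, pocket proteins, E2F and DP factors and proteins that turn over p27 and cyclin E. For DKO against control, calls over this list were near those over all genes in each stage. On activation of control cells they were above them. In CD40L+IL-4 16 of 25 rose and 1 fell (68%, beside 48.8%), and in LPS+IL-4 17 rose and 3 fell (80%, beside 63.9%). Between the cultures the DKO effect differed for 5 genes upward and 5 downward (40%, beside 22.5%). In naive DKO cells 4 of the 22 tested rose and 0 fell (18.2%, beside 21.2% of all genes called). These were Tfdp1, the DP partner of E2F factors (1.17 ± 0.22), E2f2 (0.85 ± 0.12), Cks1b, a cofactor in p27 turnover (0.81 ± 0.29), and Mnat1, a subunit of the CDK-activating kinase (0.76 ± 0.16). In CD40L+IL-4, 3 of 25 rose and 2 fell (20%, beside 18.3%). Cdkn2b, the INK4 inhibitor p15, had the largest value (1.73 ± 0.47, adjusted p = 0.0347, edgeR), E2f6 (0.60) and E2f8 (0.66) also rose, and Rb1 (-0.71) and E2f1 (-0.72) fell. The value of E2f6 lay close to the fold threshold, and no alternative tool or fit was run on the genes of this list. In LPS+IL-4, 3 of 24 rose, which were the INK4 inhibitors Cdkn2d (1.31 ± 0.13, adjusted p = 8.72e-05, edgeR) and Cdkn2b (0.75) and the factor E2f2 (1.28), and E2f5 fell (-1.10), 16.7% of the list beside 20.2% of all genes. Cdkn2b was thus called higher in DKO of both cultures, as it was in PU.1 cKO (1.31 and 1.02). PU.1 cKO had 2 of 22 higher in naive cells, beside 10.7% of all genes called (E2f2 at 0.93 and Tfdp1 at 0.63), and E2f1 was lower in both cultures (-0.74 and -0.61).

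A list of 8 proliferation genes (Mki67, Top2a, Ccna2, Ccnb1, Cdk1, Pcna, Mcm2 and Tyms) rose as a whole with activation of control cells, 8 of 8 in each culture, with median log2 fold changes of 6.00 and 6.48. In DKO against control edgeR called 0 of 8 in CD40L+IL-4 (median -0.10) and 0 of 8 in LPS+IL-4 (median -0.09), beside 18.3% and 20.2% of all genes. In each culture 2 of 8 had an unadjusted p under 0.05, and no other tool was run on this list. By the study's account, division read from dye dilution at 48 h of CD40L+IL-4 was modestly increased in PU.1 cKO and DKO cells. In naive cells 1 of 8 was called in DKO, Tyms at 1.87 ± 0.38, adjusted p = 0.0078 (edgeR), 1 was called lower in PU.1 cKO, Mki67 at -1.92 ± 0.72, adjusted p = 0.148 (edgeR), and 1 higher in SpiB KO, Cdk1 at 0.95 ± 0.33, adjusted p = 0.135 (edgeR). DKO against PU.1 cKO in naive cells, the comparison in which Ccnd1, Ccnd2 and Cdkn2c were higher, had 5 of 8 called higher and 0 lower, with a median of 1.075 and beside 12.9% of all genes called. These were Ccna2 (1.76 ± 0.46), Ccnb1 (1.40 ± 0.52), Cdk1 (1.15 ± 0.34), Tyms (0.997 ± 0.35) and Top2a (0.98 ± 0.37), on 8 to 140 counts a library, and DKO replicate 1 lay above DKO replicate 2 for each of them. Their part in the differences of the members was not tested.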

How the data were processed

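Gene-level raw counts were deposited by the authors, who used the Subread aligner against GRCm38/mm10 and tallied reads with a unique position over RefSeq exons by featureCounts. Versions were not given in the sources used here. The deposited log2 RPKM values were filtered and normalised by the authors, with naive and CD40L+IL-4 libraries together and LPS+IL-4 libraries apart. They served for control levels per length and, among the alternatives, for a floor on mean log2 RPKM. The 517 entries without a symbol held 0.162% of counts. They stayed in the fits and in the shares over all genes, and were left out of the search for genes most like a member. No columns of per-sample values were left unmapped. 1 gene of the B cell marker list is not reported here.

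Counts were scaled by TMM, genes with at least 0.5 CPM in 2 libraries were kept, and edgeR 4.0.16 quasi-likelihood tests (R 4.3.3) were fitted over the 8 libraries of a stage, or over all 24 libraries as 12 groups for comparisons between stages. Calls needed a Benjamini-Hochberg adjusted p under 0.15 and a fold over 1.5. The study used voom with quantile normalisation in limma (3.58.1 here), which was run as an alternative, as were DESeq2 1.42.0, other size factors, other filters, a stricter threshold, a replicate block and fits without each library. The 10 members and all gene lists were chosen with earlier results of these data known. Every member was named in the text. Genes of the pathway and proliferation lists were named for only some of the comparisons that called them. The 2 genes of highest Pearson r with a member over the 24 libraries were named as most like it. Windows for promoters came from RefSeq (GRCm38.p6) by symbol for 7 of the 10 members. Replicates of a group correlated at r = 0.978 to 0.991. Whether the counting used strand was not given, so that reads of overlapping antisense genes could not be told apart. The fits were checked on simulated counts with known changes. Whether same-numbered replicates deviated together was checked by the correlation of their deviations from group means. All 6 values lay between 0.386 and 0.514 in LPS+IL-4, and the numbers were taken to pair the samples there. They did not all pass 0.1 among naive libraries, at 0.0918 to 0.25, or in CD40L+IL-4, at -0.0702 to 0.266, and no pairing was taken.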

Additional observations from a re-analysis of the deposited data

Results flagged for a closer look

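The DKO effect (DKO against control) differed between stages for the genes below, each by a test of the difference itself in edgeR over all 24 libraries. Values are log2 differences of the effect ± SE with the edgeR adjusted p. By the study's account the floxed Spi1 exon was partly retained in naive DKO cells and removed in culture, so that the extent of PU.1 deletion and the stage cannot be told apart in the differences from naive cells.

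Of the genes below, Ccnd1 lay close to the filter on low counts in both cultures. In naive cells Ccnd1 and Cdkn2c were high in the libraries with high pDC, T cell and macrophage marker sums, whose part was not tested. In CD40L+IL-4 minus naive, Ccnd1 differed by -3.17 ± 0.75, adjusted p = 0.00995, and Ccnd2 differed by -1.72 ± 0.25, adjusted p = 0.000134. Ccne1 differed by -0.64 ± 0.21, adjusted p = 0.0675, and Cdkn2c differed by -1.01 ± 0.20, adjusted p = 0.00254. The Ccne1 call was lost with voom (-0.46) and without control naive replicate 1 (-0.45), DKO naive replicate 1 (-0.59) or control CD40L+IL-4 replicate 2 (-0.54). Ccnd1, Ccnd2 and Cdkn2c kept their calls in every alternative tried.

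In LPS+IL-4 minus naive, Ccnd1 differed by -2.74 ± 0.55, adjusted p = 0.00209, Ccnd2 by -2.21 ± 0.25, adjusted p = 1.12e-05, and Ccnd3 by -0.60 ± 0.26, adjusted p = 0.129. Ccne1 differed by -0.92 ± 0.21, adjusted p = 0.00537, Cdk4 by -0.98 ± 0.23, adjusted p = 0.00689, and Cdk6 by -1.06 ± 0.48, adjusted p = 0.137. Cdkn1b was the member that differed upward, by 0.69 ± 0.21, adjusted p = 0.0299. Ccnd3 lost its call in 5 of the 8 fits without 1 library (values from -0.61 to -0.44) and with voom (-0.57). Cdk6 lost it without DKO naive replicate 1 (-1.13) or 2 (-0.996), control naive replicate 2 (-0.68), DKO LPS+IL-4 replicate 1 (-0.93) or control LPS+IL-4 replicate 2 (-0.78). Cdkn1b fell under the fold threshold with voom (0.57).

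In LPS+IL-4 minus CD40L+IL-4, Cdk4 differed by -0.65 ± 0.23, adjusted p = 0.0629, Cdkn1b by 0.88 ± 0.21, adjusted p = 0.0104, and Cdkn2c by 0.81 ± 0.19, adjusted p = 0.00953. The inhibitors kept their calls in every alternative tried, and Cdk4 lost its call with voom (-0.55) and without DKO CD40L+IL-4 replicate 2 (-0.44), DKO LPS+IL-4 replicate 1 (-0.58) or control LPS+IL-4 replicate 2 (-0.51). Stage and the separate table that held the CD40L+IL-4 counts cannot be told apart here or in CD40L+IL-4 minus naive. Stage and any difference in library making or sequencing cannot be told apart in any of these differences, also LPS+IL-4 minus naive.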

How the results depend on the processing

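Of 70 combinations of a member and a comparison that were called, 51 kept their call under every alternative tried and 0 changed direction. Counts of members called moved over 1.5 times in few comparisons, and the cause was not tested. With all 24 libraries in 1 fit, 2 members were called in naive PU.1 cKO, 2 in naive DKO against SpiB KO, 1 in CD40L+IL-4 PU.1 cKO, 1 in the CD40L+IL-4 interaction and 0 in LPS+IL-4 DKO against PU.1 cKO. Without a filter on low counts the last 4 of these gave 2, 1, 1 and 0. With voom, DKO against SpiB KO gave 2 in naive cells and against PU.1 cKO 0 in LPS+IL-4. DESeq2 gave 1 in the CD40L+IL-4 interaction, which was Cdkn1a there and in each other setting that called it. At an adjusted p under 0.05, DKO against SpiB KO gave 0 in naive cells and PU.1 cKO 1 in CD40L+IL-4.

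The replicate block gave 2 in naive DKO against SpiB KO and 1 in the CD40L+IL-4 interaction, stages where the numbers were not shown to pair the samples, and in LPS+IL-4, where they were, it moved no count of members over 1.5 times. It raised the genes called in the LPS+IL-4 interaction from 172 to 540 of all genes.

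Leaving out 1 library at a time, where the lone sample of a group is assumed to vary like the other groups, gave ranges of members called of 1 to 4 for naive PU.1 cKO, 1 to 3 for naive SpiB KO, 4 to 7 for naive DKO, 0 to 0 for naive DKO against SpiB KO, 0 to 1 for the naive interaction, 0 to 2 for CD40L+IL-4 PU.1 cKO and 0 to 1 for LPS+IL-4 DKO against PU.1 cKO. The lowest naive DKO count came without control replicate 2, and the highest naive PU.1 cKO count without control replicate 1. In the naive interaction, Ccnd1 was called without control replicate 2 (0.96). With 2 libraries a group, 4 to 17 counts a library limit Ccne2 in naive cells most, and other size factors or a floor on log2 RPKM moved no count over 1.5 times.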
